A study of Mus musculus with 14 samples.

Results

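The nuclear genes that encode the subunits of the respiratory chain and the ATP synthase were followed in lactating mammary tissue of the mouse. The rule that defines them reads only gene symbols: the *Nduf* genes numbered within the a, b, c, s and v series, *Sdha* to *Sdhd*, every *Uqcr* and *Atp5* gene, the structural *Cox4* to *Cox8* genes, and *Cyc1* and *Cycs*. This rule picked 86 of the 20550 genes listed in the deposited expression tables, of which 20515 carried a usable symbol. Complex I contributed 37 genes, complex II 4, complex III 9, complex IV 18 and complex V 17, and *Cycs* encodes the mobile carrier cytochrome c. Complexes were assigned by symbol, so *Ndufa4* and *Ndufa4l2* were counted with complex I. Counted with complex IV instead, they left the median exon and intron levels of both complexes unchanged. Total RNA-seq was performed on mammary glands at day 10 of lactation (L10) from 2 wt/Wap-Tbrg4 mice, labelled as replicates 1 and 2 of a single group. These C57BL/6-derived CRISPR-Cas9 mice were heterozygous. One allele kept the wild-type *Wap* and *Tbrg4* genes, and on the Wap-Tbrg4 allele a deletion between the genes placed *Tbrg4* under the *Wap* super-enhancer and promoter, whose activity is mammary-specific. Ages were not given, and the labels call the samples replicates without saying how they were collected. The series holds 14 samples, and its 12 ChIP-seq samples were not analysed here. With a single genotype and stage, the design allows no test between groups, so every value is a description given for each mouse with the spread between them.

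Complex I (NADH dehydrogenase) and complex II (succinate dehydrogenase) pass electrons to ubiquinone, complex III passes them on to cytochrome c, and complex IV (cytochrome c oxidase) reduces oxygen, while complex V (ATP synthase) uses the proton gradient that complexes I, III and IV build. All of complex II and most subunits of the other complexes are encoded in the nucleus, and the catalytic centres of complexes III and IV and the proton channel also need subunits encoded by mitochondrial DNA. Lactating mammary epithelium is rich in mitochondria, which supply the ATP for milk protein, lipid and lactose synthesis. *Tbrg4*, also called *Fastkd4*, encodes a mitochondrial RNA-binding protein.

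The tables give fragments per kilobase per unit of library size (FPKM), with 1 decimal, for the collapsed exons and for the introns of each gene. Whether library size was set by total reads or by size factors is not given in the sources used here, and the exon FPKM of genes with a usable symbol summed to 852961 in replicate 1 and 1788114 in replicate 2, so levels and shares of the total depend on that scaling. The tables hold no counts, so the depth of the libraries is unknown and no counting interval can be given. Of the secretory markers, *Wap* had 172935 and 234774 FPKM and *Elf5* 185.8 and 204.8 in replicates 1 and 2. *Csn2* had 108555 and 481937 and *Lalba* 8453.5 and 8265.4. The keratins were lower in replicate 2, with *Krt18* at 145 and 57.6 and *Krt8* at 31.4 and 14.6. Of the brown fat markers, *Ucp1* was listed at 0 in both mice and *Cidea*, which lactating epithelium also uses, had 1865.1 and 1483.9. Of the myoepithelial markers, *Acta2* was listed at 0, while *Krt14* had 17.9 and 5.4, *Krt5* 6.6 and 3.5 and *Oxtr* 18.9 and 23.6. These zeros are not read as absence, as runs of genes at 0, described below, took in genes that cells in general use. The 10 highest genes held 79.5% of the summed exon FPKM in replicate 1 and 90.6% in replicate 2. The values come from bulk tissue, in which fewer cells of a type and less RNA per cell cannot be told apart.

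Most of these genes were among the abundant transcripts of the gland. Averaged over the mice, 76 of the 86 genes reached 1 FPKM in exons (35 of 37 for complex I, 4 of 4 for complex II, 9 of 9 for complex III, 12 of 18 for complex IV, 15 of 17 for complex V, and *Cycs*), and 67 reached at least 10. The median over all 86 was 56.25 in replicate 1 and 46.0 in replicate 2, beside 0.8 and 0.7 over all listed genes. Of the 500 genes ranked highest by exon level, 45 were members of this set, and 8 were among the highest 100. Their exon FPKM summed to 6979.9 and 5937.8, which was 0.818% and 0.332% of the total. Without the 10 highest genes of the gland these shares became 3.98% and 3.52%.

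The complexes differed in their median level. Over all its members complex V had the highest median, 98.4 and 74.8 FPKM in replicates 1 and 2 (86.6 ± 16.7, mean ± SD, n = 2). Complex III followed with 56.3 and 66.1 (61.2 ± 6.93) and complex II with 57.05 and 54.5 (55.8 ± 1.80). Complex II lay above complex III in replicate 1 and below it in replicate 2, so these neighbours did not differ beyond their spread. Complex I had medians of 48.2 and 35.5 (41.9 ± 8.98), and its ratio to complex V was 0.490 in replicate 1 and 0.475 in replicate 2. The lowest median was that of complex IV, at 15.0 and 13.75 (14.4 ± 0.884). All pairs of complexes other than II and III kept their order in both mice, with a mean log2 ratio larger than its SD. The order depended on the members and the summary taken: without genes that have near-identical copies in the genome, complexes I and III were level at 50.4 and 50.5 (means over the mice), and with a mean over members complex IV, at 104.7, passed complex V, at 89.6.

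**Figure D1:**
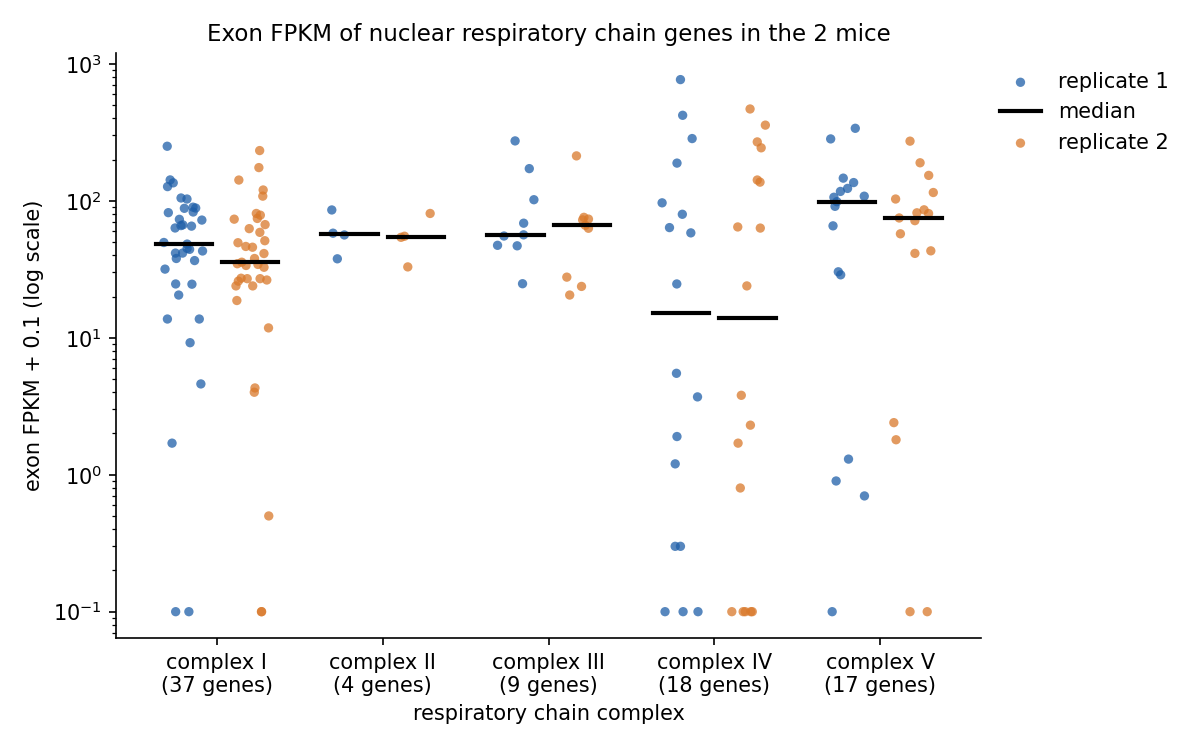
Exon FPKM (log axis, 0.1 added so that genes at 0 can be drawn) of every member gene by complex, with 1 point per gene in each mouse and a black bar at the median of each complex. Complex IV separates into a group at or above 23.8 FPKM and a group at or below 5.4 FPKM, and its median of 15.0 and 13.75 falls between them.

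The low median of complex IV came from how its members are distributed. Of its 18 genes, 9 averaged 10 FPKM or more and the other 9 were at 4.55 or below, so the median fell in a gap that no gene occupied. Among the 12 with a mean of at least 1, the median was 71.6 and 100.5 FPKM, which was the highest of all complexes in replicate 2 and lower than the 106.0 of complex V in replicate 1. Summed over members, complex IV reached 1995.0 and 1774.7 FPKM, close to the 2228.2 and 1932.3 of complex I with its 37 genes. Complex V summed to 1673.0 and 1372.3, complex III to 845.5 and 634.6, and complex II to 237.3 and 222.5.

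Complex I was led by its accessory subunits. *Ndufb9* (chr15:58933801-58939516 in GRCm38, plus strand) had 250 and 232.5 FPKM, and 19.5% of its exon bases overlap another gene on the same strand. *Ndufa1*, a small accessory subunit encoded on the X chromosome, had 135.1 and 174.6 FPKM. At the low end of the genes assigned to complex I by symbol were *Ndufs5*, with 4.5 and 3.9, and *Ndufa4l2*, with 1.6 and 0.4. *Ndufs5* has a near-identical copy in the genome (99.4% identity), so its exon value is uncertain. The members above 10 FPKM spanned a 19.1-fold range.

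The 7 nuclear core subunits of complex I, which carry the flavin and the iron-sulphur clusters or line the path of the electrons, had a median of 44.1 and 26.9 FPKM, against 64.5 and 43.4 for the 30 other genes. The flavoprotein subunit *Ndufv1* had 65.2 and 27.1 FPKM, and its partner *Ndufv2* had 44.1 and 51.0. Among the cluster-bearing subunits, *Ndufs7* had 44.8 and 26.9, *Ndufs8* 36.5 and 26.3, and the large subunit *Ndufs1* 20.4 and 18.6. *Ndufs3* was the lowest of the core at 13.6 and 11.7. It is the only core gene with a near-identical copy in the genome (98.6% identity), so its exon value is uncertain. Without *Ndufs3* the core ran from 20.4 to 65.2 FPKM in replicate 1 and from 18.6 to 51.0 in replicate 2.

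Complex II had the narrowest range, with 2.0-fold between its highest and lowest gene. The iron-sulphur subunit *Sdhb* (chr4:140961271-140979198, plus strand) had 85.6 and 55.0 FPKM. *Sdha*, the flavoprotein that oxidises succinate, had 57.9 and 54.0. The membrane anchors differed, with *Sdhd* at 56.2 and 80.7 and *Sdhc* at 37.6 and 32.8. *Sdhc* was the lowest of the complex in both mice, while the highest was *Sdhb* in replicate 1 and *Sdhd* in replicate 2.

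In complex III the hinge protein gene *Uqcrh* (chr4:116066965-116075070, minus strand) was highest, at 273.5 and 212.6 FPKM, and *Uqcr11* was next by its mean, at 171.6 and 66.1, although *Uqcrb*, *Uqcr10* and *Uqcrc2* lay above it in replicate 2. The Rieske iron-sulphur protein *Uqcrfs1* had 68.5 and 62.9. Cytochrome c1, encoded by *Cyc1*, had the lowest mean of the complex, with 24.7 and 27.6, next to the core protein gene *Uqcrc1* with 47.2 and 23.6. *Uqcrc1* and *Cyc1* changed order between the mice. Between the highest and the lowest member lay 9.29-fold.

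Complex IV contained the most abundant gene of the set. *Cox6a1* (chr5:115345652-115348958, minus strand) had 766.7 and 467.9 FPKM and took rank 34 among all genes. *Cox4i1*, which encodes the largest nuclear subunit, had 420.7 and 268.9, and *Cox6c* had 284.5 and 356.6. *Cox8a* had 188.3 and 243.5. *Cox6a1* and *Cox4i1* were higher in replicate 1, whereas *Cox6c* and *Cox8a* were higher in replicate 2.

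Several subunits exist as a widely used isoform and a more restricted one, and wherever the widely used isoform was above 0 it was the higher of the pair. *Cox4i2*, a lung-enriched form, had 1.1 and 0.7 FPKM, so that *Cox4i1* exceeded it 382-fold in replicate 1 and 384-fold in replicate 2. The heart and skeletal muscle isoform *Cox7a1* had 5.4 and 3.7 against 96.5 and 141.7 for *Cox7a2*, a ratio of 17.9 and 38.3. *Cox8b*, also a muscle form, had 3.6 and 1.6, and *Cox8a* exceeded it 52.3-fold and 152-fold. For *Ndufa4* the values were 66.6 and 108.0, and its ratio to *Ndufa4l2* was 41.6 and 270. Among these pairs the *Cox4* ratio was alike in both mice and the others were not. However, their restricted isoforms were at 0.4 to 5.4 FPKM, where a table with 1 decimal is coarse. The *Cox4* ratio fell to 180 with a pseudocount of 1.

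**Figure D2:**
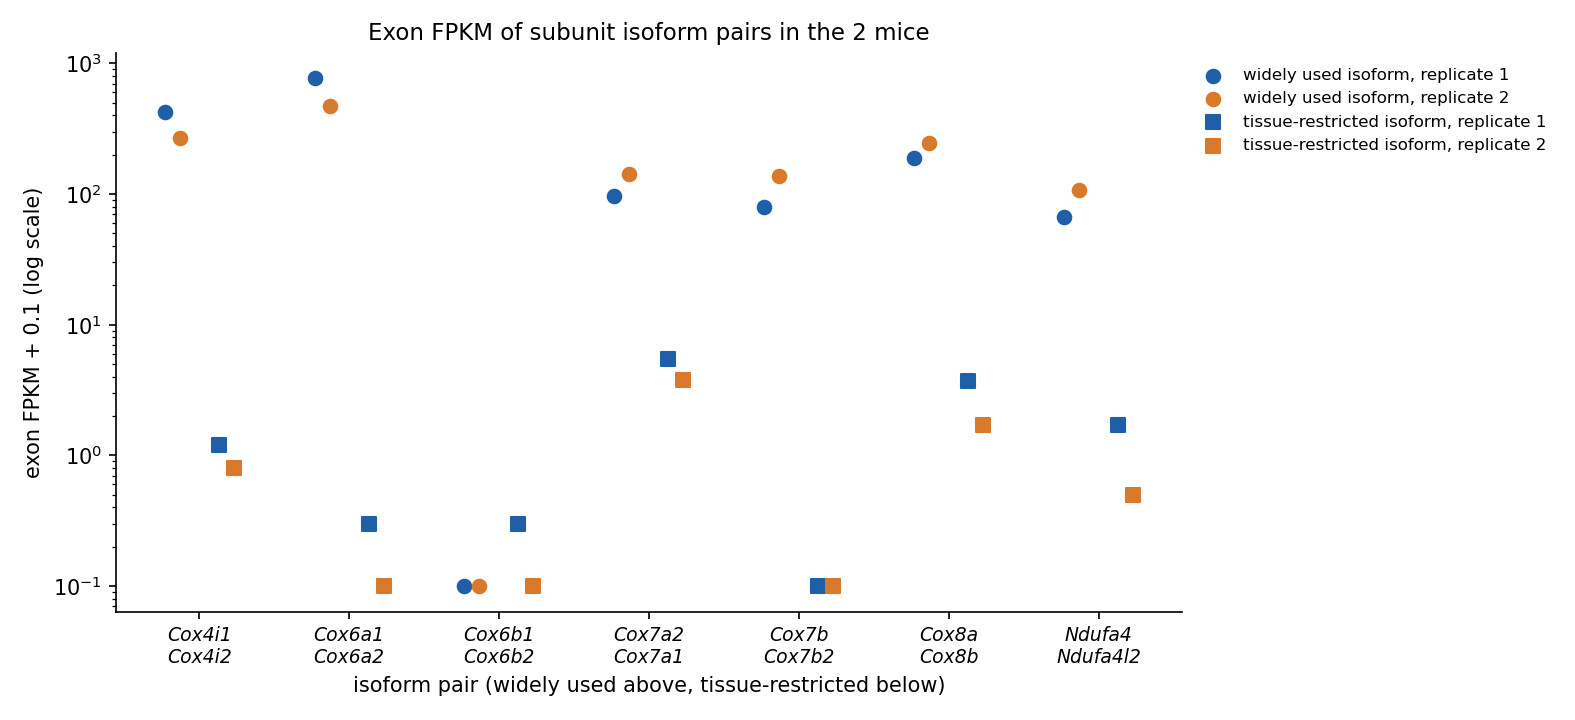
Exon FPKM (log axis, 0.1 added) of 7 isoform pairs. Circles mark the widely used and squares the more restricted isoform (labelled tissue-restricted), with a colour for each mouse. The circles lie far above the squares in 6 pairs, and in the *Cox6b1* and *Cox6b2* pair no value exceeds 0.2 FPKM.

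The muscle isoforms *Cox6a2* (0.2 and 0.0 FPKM), *Cox7a1* and *Cox8b* were all higher in replicate 1. Of 6 skeletal muscle markers 5 (83.3%) were also higher there, beside 55.4% of all genes above 1 FPKM, and *Myh1* was at 0.3 in both mice. The log2 ratio of replicate 2 to replicate 1 was -0.45 for *Cox7a1* and -0.82 for *Cox8b*. After the GC correction described below these ratios were -0.13 and -0.40. The 6 skeletal muscle markers summed to 30.5 FPKM in replicate 1 and 12.3 in replicate 2, and *Acta1* among them had 8.4 and 3.7. The marker values were not corrected for GC content, and the part of muscle or other tissue in the levels of these isoforms was not tested. The testis isoforms *Cox7b2* and *Cox8c* were listed at 0 in both mice, against 79.6 and 136.7 FPKM for *Cox7b*. *Cox6b2*, likewise a testis form, had 0.2 and 0.0.

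The highest genes of complex V encode parts of the catalytic F1 head. *Atp5b*, the beta subunit that carries the catalytic sites (chr10:128083307-128090388, plus strand), had 338.1 and 272.4 FPKM. *Atp5a1*, the alpha subunit, had 282.8 and 189.3. The stalk subunits were lower: *Atp5c1* (gamma) had 65.5 and 85.8, *Atp5d* (delta) had 98.4 and 57.3, and *Atp5e* (epsilon) had 135.7 and 71.5. The 5 F1 genes together had a median of 135.7 and 85.8 FPKM, and the 12 other genes of the complex 60.6 and 58.9. The F1 genes summed to 920.5 and 676.3 and the others to 752.5 and 696.0, so the order of the sums changed between the mice. Near-identical copies, which make exon values uncertain, were found for 7 of the 12 and for 1 of the 5. At the low end of the genes above 1 FPKM were *Atp5g1*, with 0.8 and 2.3, and *Atp5s*, a factor coupled to the synthase, with 1.2 and 1.7.

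The c subunit, which forms the rotating ring in the membrane, is encoded by *Atp5g1*, *Atp5g2* and *Atp5g3*. Their translated coding sequences end in the same residues, with 86 shared by *Atp5g1* and *Atp5g3* and 78 by the pairs with *Atp5g2*. In exons, *Atp5g3* made up nearly the whole of the family, with 91.0 and 102.9 FPKM, or 99.1% and 97.8% of their sum. *Atp5g2* was listed at 0 in both mice. The introns gave another picture. *Atp5g1* had 1.3 and 0.6 intron FPKM, *Atp5g2* had 0.9 and 1.3, and *Atp5g3* had 1.3 and 2.3, so that *Atp5g3* held 37.1% and 54.8% of the intron sum.

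*Atp5g2* belongs to a small group whose mean exon level was close to or below its mean intron level. Of the 58 members whose introns averaged 0.5 FPKM or more, 5 had a mean exon FPKM under 2 times the intron value, which was 8.62% beside 4.62% of all 4220 genes at that intron level. *Cox7c* had 1.8 and 2.2 FPKM in exons and 3.6 and 2.9 in introns, the highest intron level of all 86 genes. *Atp5l*, which encodes the g subunit of the synthase, had 0.6 and 0.0 in exons and 1.1 and 2.6 in introns. *Cycs*, cytochrome c itself, had only 0.9 and 1.4 in exons and 1.3 and 0.2 in introns. *Atp5g1* was the remaining gene. The mice did not agree for *Cycs* and *Atp5g1*: in replicate 2 their exon level was 7.0 and 3.83 times the intron level. Both were under 2 times in replicate 1 and in the mean only.

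All 5, beside 37.4% of all genes with such exon values, had a near-identical copy at another place of the genome, meaning an alignment that covered 50% or more of the coding sequence with 95% or more of its bases identical. Such copies, usually processed pseudogenes, can take or share the exon reads of the parent gene and do not carry its introns. Copies were found for 23 of the 86 members (26.7%), beside 6.48% of all genes with a coding sequence, and fell on 7 genes of complex I, 3 of complex III, 4 of complex IV, 8 of complex V and *Cycs*. *Atp5l* had 8 copies, *Cycs* 5, *Cox7c* 4 and *Atp5g2* 2, and the best copy of each was 100% identical. *Atp5g1* had 1 copy at 99.8%. Among all genes whose introns reached this level, a mean exon FPKM below 1 was found in 0.653% of those without a copy and in 24.2% of those with 4 or more.

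Copies did not always go with low exon values. *Atp5h*, named here after its values were seen, has 4 copies of 95.1% to 99.0% identity and had 107.9 and 81.6 FPKM in exons. *Cox6c*, with 1 copy at 97.0%, took rank 65 among all genes. How reads that match several places were counted is not given in the sources used here, so the exon values of the 23 genes with copies are uncertain. Whether the copies took their reads was not tested.

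**Figure D3:**
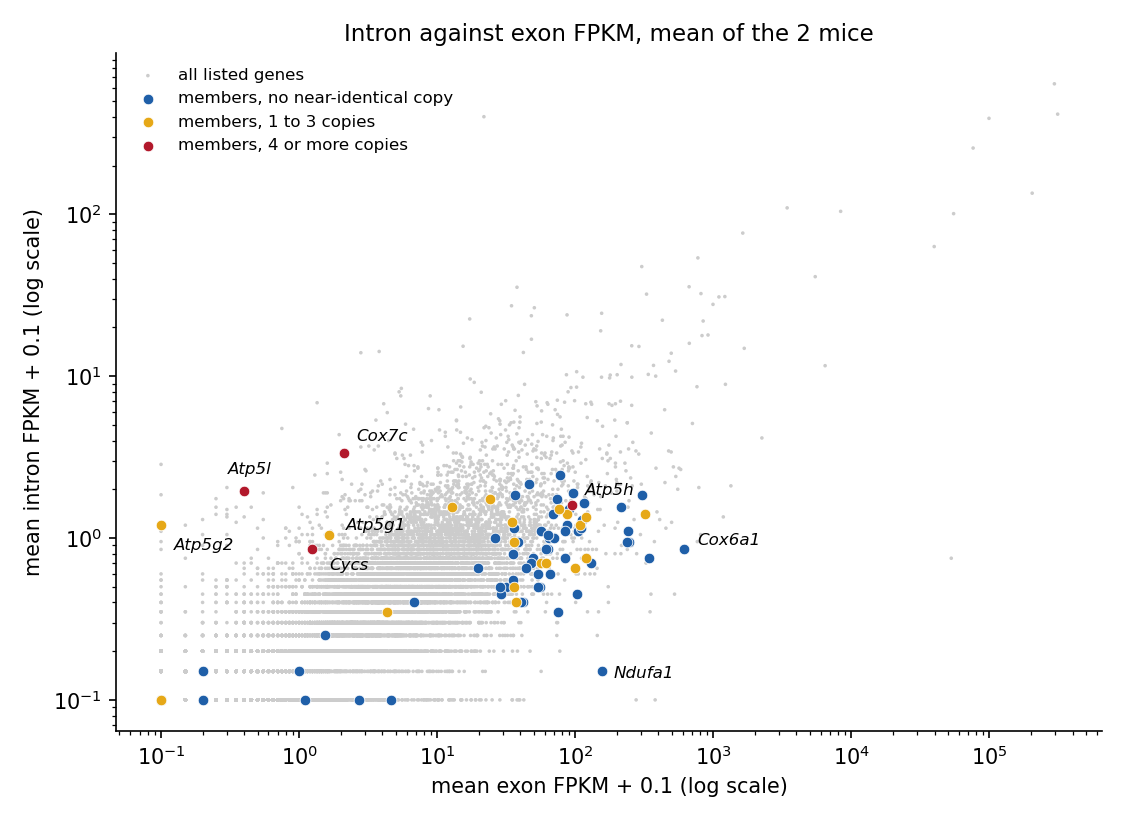
Mean intron FPKM against mean exon FPKM of the 2 mice (log axes, 0.1 added) for all listed genes in grey and the members coloured by their number of near-identical copies. Most members lie to the right of the grey cloud, and *Cox7c*, *Atp5l*, *Atp5g2*, *Atp5g1* and *Cycs* lie at its left side with mean intron levels of 0.75 FPKM or more.

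Intron levels, which reflect unspliced RNA, also differed between the complexes. The median was 0.65 and 0.8 FPKM over all 86 genes, beside 0.1 in both mice over all listed genes. This gap depended on the filter. At a mean exon FPKM of at least 1, members had 0.7 and 0.8 and all genes 0.4 in both mice. At 10 or more, members had 0.7 and 0.9 and all genes 0.7 and 0.8. Complex V had the highest median, 1.1 and 1.3, followed by complex II with 0.9 and 1.0 and complex III with 0.6 and 0.9. Complex IV had 0.5 and 0.7 and complex I 0.4 and 0.6. This order was the same in both mice, and each pair had a mean log2 ratio larger than its SD, although the tables resolve only 0.1. The order depended on the members taken (means over the mice). With the 1 FPKM filter complex IV, at 0.8, passed complex III, at 0.75. Without genes that have copies complex IV, at 0.05, fell below complex I, at 0.55. Complex I over complex V was 0.364 in replicate 1 and 0.462 in replicate 2, near the ratio of their exons. All these medians were far below the exon medians of the same complexes.

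For the 76 members above the 1 FPKM filter, the log2 ratio of intron to exon FPKM (0.1 added to each) had a median of -6.31 in replicate 1 and -5.81 in replicate 2, beside -3.62 and -3.51 over the 9845 genes that passed the same filter. The complexes spanned a narrow range, with means over the mice of -5.94 for complex II, -6.01 for complex I, -6.06 for complex III, -6.08 for complex V and -6.36 for complex IV. Within complexes the spread was larger: the core subunits of complex I had -5.00 and its other genes -6.10, and the F1 genes of complex V had -7.31. Members have short exons, with a median of 783.5 bp against 3119 bp for all genes above 1 FPKM. Across genes, exon and intron FPKM were related with a Spearman rho of 0.35 over the 76 members and 0.63 over the 9845 genes, and genes are not independent replicates.

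Single genes departed from this pattern in either direction. *Ndufa1* had introns at 0.0 and 0.1 FPKM despite its high exon level, and *Cox6a1* had 0.6 and 0.9. The highest intron levels within complex I were those of *Ndufv1* (2.1 and 2.0) and *Ndufa7* (1.4 and 1.9), and within complex III those of *Uqcr10* (1.5 and 1.1) and *Uqcrc2* (0.9 and 1.0). In complex II *Sdhd* had 1.2 and 1.4 and *Sdha* 0.8 and 1.2. *Cox5b* followed *Cox7c* in complex IV with 2.0 and 1.3. *Atp5d* led complex V with 2.4 and 2.3.

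In 6 members the exons were listed at 0 in both mice: *Ndufb8* and *Ndufb11* of complex I, *Cox6b1*, *Cox7b2* and *Cox8c* of complex IV, and *Atp5g2*. All but *Atp5g2* were also at 0 in introns, which was 5.81% of the members and 29.6% of all genes. *Ndufb8*, *Ndufb11* and *Cox6b1* encode subunits found in most tissues. Each lay in a run of neighbouring listed genes at 0. *Ndufb11* (chrX:20615326-20617619) lay within 137 consecutive listed genes at 0 from position 3441731 to 26935669 of the X chromosome in GRCm38, the longest of 3112 such runs, which also took in *Uba1*, *Rbm10* and *Hdac6*, genes that cells in general use. *Cox6b1* (chr7:30616971-30626114) lay in a run of 12 genes with *Kmt2b* and *Rbm42*. *Ndufb8* (chr19:44548571-44555442) lay in a run of 4 with *Scd1*, a lipid desaturase gene, and its neighbour on the other side, *Hif1an*, had 6.0 and 5.7 FPKM. Of the 3112 runs, 31 were at least as long as that of *Cox6b1* and 272 at least as long as that of *Ndufb8*. Whether these zeros are failed estimates was not tested, and no statement on expression is made for these genes. They remain in the counts and medians over all members.

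The mice had the same genotype and stage, so differences between them measure the spread. The median log2 ratio of replicate 2 to replicate 1 (exon FPKM + 1) was -0.17 over the 76 members and -0.08 over all 9845 genes, and 47 of the 76 (61.8%) were higher in replicate 1, beside 55.4% of all genes. More than 2-fold apart were 8 members, beside 5.9% of all genes, of which 7 were higher in replicate 1 (background 4.82% of all genes) and 1 in replicate 2 (background 1.08%). The 8 comprised 6 of complex I and 2 of complex III.

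The largest difference was that of *Ndufb7*, an accessory subunit of complex I (chr8:83566758-83571623, plus strand), with 141.9 FPKM in replicate 1 and 26.9 in replicate 2, or 5.28-fold. *Ndufa2* had 82.7 and 23.8 (3.47-fold), and *Uqcrq*, a small subunit of complex III, had 56.3 and 20.4 (2.76-fold). In the opposite direction *Ndufb4* (chr16:37647602-37654368, minus strand) had 13.6 and 58.7, 4.32-fold higher in replicate 2, and it has 2 copies that are 100% identical to its coding sequence. *Ndufa12* had 24.6 and 49.3, and *Cox7b* had 79.6 and 136.7. The introns of *Ndufb7* (0.8 and 0.5) and of *Ndufb4* (0.7 and 1.0) differed less than 2-fold.

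The difference between the mice moved with base composition. Over members the Spearman rho between exon GC content and the log2 ratio was -0.52 (n = 76), and over all genes it was -0.66 (n = 9839). In the 26 members with the lowest GC content the median log2 ratio was 0.26, in the middle 25 it was -0.19, and in the highest 25 it was -0.71. After a lowess curve of the ratio on GC content was removed, the median over members was 0.019, and 4 members were more than 2-fold higher in replicate 2 and 3 in replicate 1, beside 1.12% and 0.793% of all genes. *Ndufb7* (-1.63), *Ndufa2* (-1.56), *Uqcrq* (-1.36) and *Ndufb4* (2.05) stayed past 2-fold on this corrected log2 scale, and *Ndufa12* reached 1.06, *Cox8a* 1.04 and *Atp5g1* 1.31. *Uqcr11*, *Ndufv1*, *Ndufb10* and *Ndufa8* did not stay past it.

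The scaling also set how many members differed. With each mouse rescaled to a sum of 1000000, 47 members were more than 2-fold higher in replicate 1 and 0 in replicate 2, beside 42.5% and 0.0609% of all genes (42.6% in either direction), and the median log2 ratio over all genes became -0.90. With the ratios centred on the median of all genes, 6 were higher in replicate 1 and 2 in replicate 2, beside 3.96% and 1.41%. In introns, 4 of 58 members were more than 2-fold higher in replicate 2 (background 2.37%) and 1 in replicate 1 (background 3.53%), beside 5.9% of all genes in either direction. The median intron log2 ratio of the members was 0.29, opposite in sign to that of their exons, and that of all genes was 0.00.

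**Figure D4:**
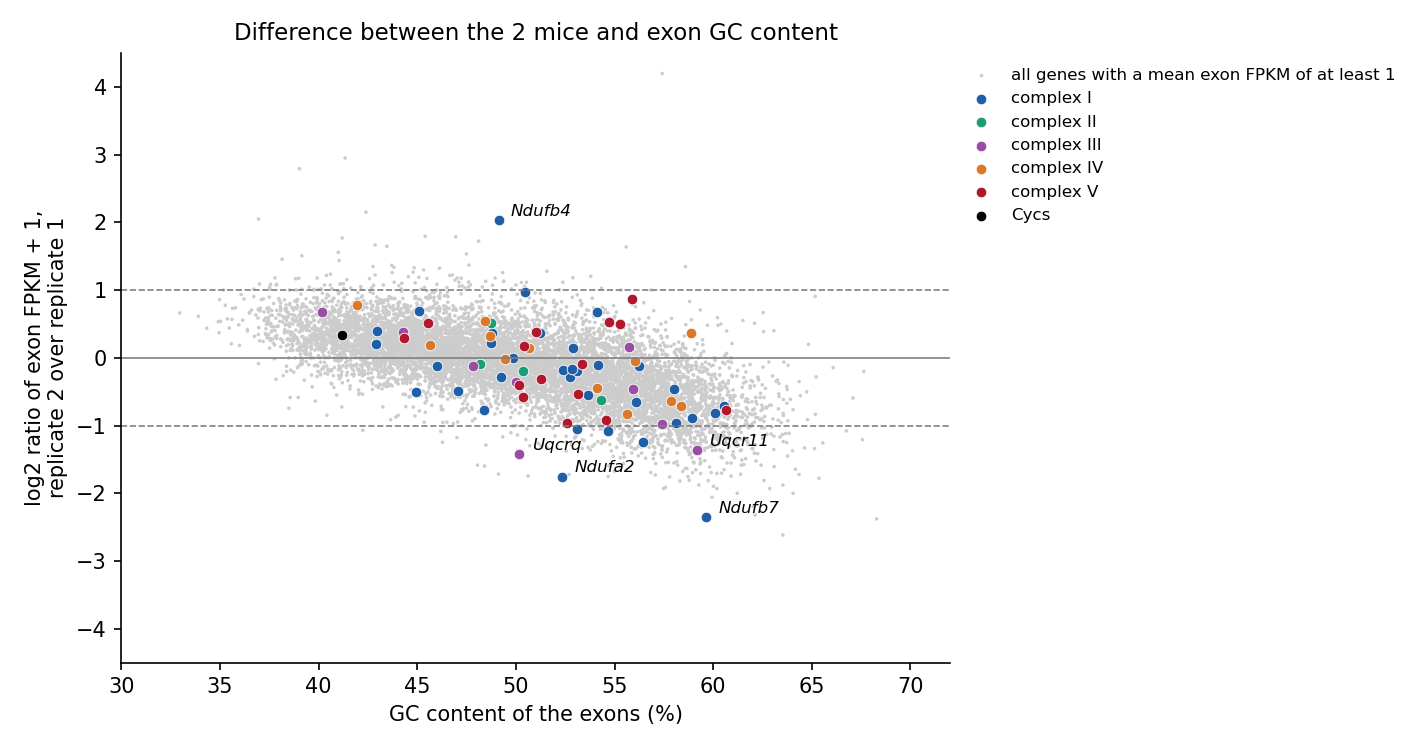
Log2 ratio of exon FPKM + 1 in replicate 2 over replicate 1 against the GC content of the exons, for all genes above the filter in grey and the members coloured by complex, with dashed lines at a 2-fold difference. Both clouds slope downward with a rho of -0.52 for the members, and *Ndufb7*, *Ndufa2*, *Uqcrq* and *Ndufb4* stand off the slope.

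Genes that serve the respiratory chain without being part of it were less abundant. Of 45 assembly factors 42 were listed and 36 reached a mean of 1 FPKM, with a median of 6.95 and 6.8 FPKM over those listed. The highest was *Coa3*, a factor of complex IV assembly, with 36.2 and 39.6. The complex III factors *Uqcc2* (26.4 and 11.6) and *Uqcc3* (23.4 and 9.0) were more than 2-fold apart between the mice, both higher in replicate 1, and these 2 of 36 (5.56%) were near the background of 5.9% of all genes. *Cox15* and *Cox16* were listed at 0, which is not read as absence of expression.

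All 15 genes on a list of regulators of respiratory chain genes and mitochondrial DNA were listed, 13 of them at a mean of at least 1 FPKM, with a median of 3.6 in both mice. *Esrra*, an orphan nuclear receptor that activates oxidative genes, had 10.7 and 3.8 FPKM and was more than 2-fold apart, as 1 of 13 (7.69%) beside the same background of 5.9%. *Yy1* had 12.3 and 16.9, *Gabpa*, the DNA-binding subunit of NRF2, 9.1 and 8.6, and *Nrf1* 1.9 and 1.5. The coactivator gene *Ppargc1a* was at 0.2 in both mice, and *Ppargc1b* had 2.6 and 1.6. *Tfam*, which packages mitochondrial DNA, had 4.0 and 5.1. *Polrmt*, the mitochondrial RNA polymerase, was listed at 0, which is likewise not read as absence.

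All 14 citric acid cycle genes were above 1 FPKM, with a median of 23.0 and 21.75, and none was more than 2-fold apart between the mice on the scale of FPKM + 1 (background 5.9%). *Idh2*, with 24.1 and 11.9 FPKM, was 2.03-fold apart without the pseudocount. *Cs*, citrate synthase, had 236.7 and 285.4 FPKM, which was within the range of the abundant members of complexes III to V. None of the 13 subunit genes of mitochondrial DNA was found in the tables under its usual symbol, so nuclear and mitochondrial subunits were not compared.

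Promoters of these genes were searched for short motifs of factors known to act on them, in windows from 250 bases before to 50 bases after the RefSeq start (GRCm38.p6), which were found for 69 of the 86 members. The NRF1 motif, which is GCGC on either side of any 2 bases, is its own reverse complement, while the ETS motif CCGGAAG, to which GABPA binds, and the YY1 motif AAGATGGC were read on both strands. Each was searched on its own, so a base could count for more than 1. The NRF1 letters were found in 18 members (26.1%), beside 7.0% of the 27025 genes with a window. ETS matches were found in 16 (23.2%), beside 9.93%, and YY1 matches in 10 (14.5%), beside 3.19%. Any of these motifs was found in 38 members (55.1%) and in 17.9% of all genes, and the member windows were richer in GC, with a median of 57.5% against 52.7%. The YY1 matches fell on 7 genes of complex I and 3 of complex V, and none was found in the 3 windows of complex II, 5 of complex III and 13 of complex IV.

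The stretches below show, for each motif, the match nearest the start in the 3 most abundant members that hold it, as 30 bases of GRCm38.p6 read along the strand of the gene with the motif or its reverse complement in capitals. A match is a description of the letters and was not linked to binding.
*Cox6a1*, NRF1, chr5:115349056-115349085, minus strand: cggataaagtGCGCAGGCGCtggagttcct
*Atp5o*, NRF1, chr16:91931608-91931637, minus strand: gatcacgctgGCGCGCGCGCgtgcgctctg
*Atp5k*, NRF1, chr5:108434430-108434459, minus strand: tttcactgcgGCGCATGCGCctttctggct
*Cox6a1*, ETS, chr5:115348956-115348985, minus strand: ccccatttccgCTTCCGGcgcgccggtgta
*Uqcrh*, ETS, chr4:116075062-116075091, minus strand: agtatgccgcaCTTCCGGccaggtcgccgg
*Cox8a*, ETS, chr19:7217603-7217632, minus strand: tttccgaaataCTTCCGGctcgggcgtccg
*Ndufa3*, YY1, chr7:3617384-3617413, plus strand: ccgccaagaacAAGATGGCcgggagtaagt
*Atp5j2*, YY1, chr5:145191500-145191529, minus strand: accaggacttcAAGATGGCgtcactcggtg
*Ndufc1*, YY1, chr3:51408915-51408944, minus strand: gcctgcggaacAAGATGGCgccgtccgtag

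*Cox6a1*, the most abundant member, holds both NRF1 and ETS letters. In the YY1 stretches the capitals lie just after the start of transcription, at 26 to 27 bases in the 3 shown and at a median of 27.5 over the 10 matches. NRF1 matches had a median position of -31 and ETS matches of -17 relative to the start. The letters were also found in *Atp5g2* (NRF1) and *Atp5l* (ETS), whose exons were at or near 0.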

How the data were processed

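Per the authors' methods, total RNA was made into TruSeq Stranded Total RNA libraries, sequenced on a HiSeq 2500, mapped to mm10 with STAR, counted with HTSeq over collapsed UCSC known-gene exons and over introns, and turned into FPKM with DESeq2. The deposited FPKM values were used as given. Whether counting used strand, and tool versions, are not given in the sources used here. Reads of overlapping genes are uncertain, such as *Atp5o*, with 43.8% of its exon bases in other genes.

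Members, gene lists, isoform pairs and motifs were chosen with earlier results of these data known. Per complex, the median over members was taken in each mouse, then the mean ± SD of the 2 mice. No test was possible. Genes named are, in each complex, the 2 highest and 2 lowest by exon level among those with a mean FPKM of at least 1, the 2 highest by intron level, core subunits, isoforms, *Cycs*, the 3 largest differences between mice in each direction among members averaging 10 FPKM or more, and members at 0. A few of these genes are not reported here. A pseudocount of 1 was added for exon ratios and of 0.1 for intron ratios. Coordinates, GC content, exon length and promoters came from RefSeq (86 of 86 members matched), overlaps from GENCODE, and copies from BLAST+ 2.17.0 (megablast of coding sequences against GRCm38). The lowess fit (statsmodels 0.14.6) used 30% of genes per window and was tested on simulated data.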

Additional observations from a re-analysis of the deposited data

How the results depend on the processing

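Across 22 results and 136 alternatives, 105 stayed within the limit set and 31 moved. The limit was the spread between the mice, or 0.1 for the log2 ratio of the mice and 1.5 times for counts. With 2 mice, leaving out either moves a mean by less than 1 SD by construction, so those alternatives among the 105 were fixed in advance. The exon median moved to 48.7 (complex II), 51.5 (III) and 12.6 (IV) with each mouse rescaled to a sum of 1000000, to 56.2 (I), 82.2 (III) and 104.7 (IV) with a mean over members, and to 50.5 (III) and 3.58 (IV) without genes that have copies. For complex IV it was 86.05 with the filter of 1 FPKM and 4.55 without *Cox7a2l*, as its median falls in a gap. Intron medians became 0.807 (II) and 1.01 (V) when rescaled, 0.670 (I) with a mean, 0.8 (IV) with the filter, and 0.05 (IV) and 1.05 (V) without copies. The intron to exon log2 ratio was -4.82, -4.86, -5.20, -5.44 and -5.38 for complexes I to V with a pseudocount of 1, -5.66 (III) and -6.63 (IV) without copies, and -5.08 (IV) without the filter. The median log2 ratio of the mice was -1.17 when rescaled and -0.28 without copies, and changed sign to 0.019 after GC correction and 0.29 in introns. The causes were not tested. The count past 2-fold was 47 when rescaled and 5 in introns. *Cox4i1* over *Cox4i2* was 180 with a pseudocount of 1. No paired analysis between groups was possible because a single group of 2 mice was measured. The ratios of complexes within each mouse are descriptions without a test.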
